A study of Mus musculus with 6 samples.

Results

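The genes of the cytosolic ribosomal proteins were followed in liver messenger RNA from 6 mice. They were taken as the protein-coding genes whose symbols follow the ribosomal protein nomenclature (Rpl and Rps with a number, Rplp0 to Rplp2, and Rpsa). Names of the S6 kinases (10 genes), names of predicted copies ending in -ps (6 genes) and 300 matching entries without a protein-coding transcript were left out. This gave 86 genes of the 55385 in the deposited table: 77 canonical ribosomal proteins, 46 of the large and 31 of the small subunit, 8 paralog genes (Rpl3l, Rpl7l1, Rpl10l, Rpl22l1, Rpl36al, Rpl39l, Rps27l and Rps27rt) and Rps19bp1. Rps19bp1 encodes a protein that binds Rps19 and is not itself a ribosomal protein, so the label holds for 85 of the 86. All mice were of the C57BL/6 strain and 6 weeks old, and there were 2 per group. Wild-type controls (replicates 3 and 6) were injected intraperitoneally with 200 µL of phosphate-buffered saline. Wild-type mice (replicates 1 and 4) and Optn-/- mice (replicates 4 and 5) were given acetaminophen by the same route at 500 mg/kg, and the time for all groups was 6 h. Optn encodes the autophagy receptor optineurin. Untreated or saline-injected Optn-/- mice were not analysed here, so the effect of the genotype was compared only after acetaminophen. The labels do not say whether replicates came from separate litters, cages or days, so p-values reflect only how far these samples differ, which may in part be technical.

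Each cytosolic ribosome holds 1 copy of nearly every ribosomal protein on a scaffold of ribosomal RNA, the acidic stalk proteins Rplp1 and Rplp2 being the known exception. The messenger RNAs of these proteins are among the most abundant of any cell, and hepatocytes, which secrete most plasma proteins, keep many ribosomes. Transcription of these genes typically starts at a C followed by a run of pyrimidines, the 5′ terminal oligopyrimidine (TOP) tract, through which mTOR and the RNA-binding protein Larp1 regulate their translation. The amount of ribosomal protein made can therefore change without a change in messenger RNA, and only messenger RNA was measured here. Rpl5 and Rpl11 have a second role with the 5S ribosomal RNA: when assembly of ribosomes fails, the free complex binds Mdm2 and stabilises p53. High doses of acetaminophen are bioactivated in hepatocytes to a reactive metabolite and serve as a standard model of acute liver injury.

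Promoters are shown for 6 genes: 3 that show the TOP-type start and the 3 members that passed the gene test in any comparison. Each line gives 15 bases before and 15 bases from the RefSeq start site (GRCm38.p6), 5′ to 3′ on the gene's strand, and capitals mark a C at the first transcribed base with the unbroken run of pyrimidines that follows.
Rpl28, chr7:4792950-4792979, plus strand: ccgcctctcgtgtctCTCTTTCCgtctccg
Rps6, chr4:86857353-86857382, minus strand: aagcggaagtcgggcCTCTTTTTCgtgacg
Rps27, chr3:90213634-90213663, minus strand: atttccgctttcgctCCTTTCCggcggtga
Rpl27a, chr7:109519180-109519209, plus strand: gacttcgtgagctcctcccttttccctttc
Rps3a1, chr3:86142654-86142683, minus strand: ttaaagccggaagggcgaaagagcaagggt
Rpl22l1, chr3:28805493-28805522, plus strand: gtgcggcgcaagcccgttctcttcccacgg
Rpl28, Rps6 and Rps27 begin with such a run at the annotated base, while Rpl27a, Rps3a1 and Rpl22l1 do not. In Rpl27a the 15 bases from the start are all pyrimidines, but the first is a T. Rpl22l1 has a G at the first base and a run of pyrimidines after it. Rps3a1 has a C at the first base, followed by a G. Rpl28 was chosen for display after its sequence was seen.

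Of the 86 genes, 66 matched a symbol in the RefSeq promoter table. A TOP-type start at the annotated base was found in 14 of them (21.2%), against 3.01% of all 27025 symbols: Rpl14, Rpl15, Rpl28, Rpl35, Rpl35a, Rpl38, Rplp2, Rps6, Rps10, Rps15a, Rps18, Rps21, Rps27 and Rps27rt. A start annotated a few bases away from the real one is enough to miss the run, so the share describes these annotated starts. Other motifs were searched on both strands from 250 bases before to 50 bases after the start. The letters CCGGAAG, the core bound by Ets-family factors such as Gabpa, were in 39.4% of member promoters and 9.93% of all. TCTCGCGA was in 16.7% against 1.13%, AAGATGGC, the YY1 core, in 9.09% against 3.19%, and GGGCGG, a GC box, in 62.1% against 38.2%. CTTTCC, which can overlap a TOP-type run, was in 54.5% against 29.3%. TATAA was as frequent in the members (27.3%) as in all promoters (28%). These matches describe the windows and are not measured binding sites.

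Total counts ran from 59.1 M to 77.3 M (1 M is 1e6 counts) per library. Optn, which checks the genotype labels, had 5090 and 5823 counts in the saline libraries, 2464 and 2661 in treated wild type, and 101 and 118 in the treated knockout, so the labels held in each library. All 11 hepatocyte markers found were present in each library, with summed levels of 111500 to 152500 CPM (counts per 1e6 counts). Markers of other tissues divided the libraries: 12 skeletal muscle genes summed to 59.51 to 91.08 CPM in saline replicate 3 and both treated wild-type libraries, and to 0.58 to 1.009 CPM in the other 3. The 12 intestinal epithelium genes ran the other way, at 6.645 to 15.47 CPM against 47.44 to 74.22 CPM, and 12 neuron genes stood at 148.4 CPM in wild-type acetaminophen replicate 4 against 7.258 to 14.98 CPM elsewhere. The knockout libraries therefore lie in one of these sets and the treated wild-type libraries in the other, and genotype cannot be told apart from library set except through the saline pair.

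Ribosomal protein transcripts were abundant in every library. FPKM, fragments per kilobase of gene model per 1e6 counted fragments, compares genes per length: the canonical genes had a median of 75.42 FPKM over their means across libraries, against 2.967 FPKM for the 11677 genes with a mean of at least 0.5 FPKM that were tested, and all 77 lay above that value. Large-subunit genes had a median of 73.8 and small-subunit genes of 82.51 FPKM. From Rpl21 at 9.784 to Rplp1 at 517.6 mean FPKM, the range was 52.9-fold.

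**Figure D1:**
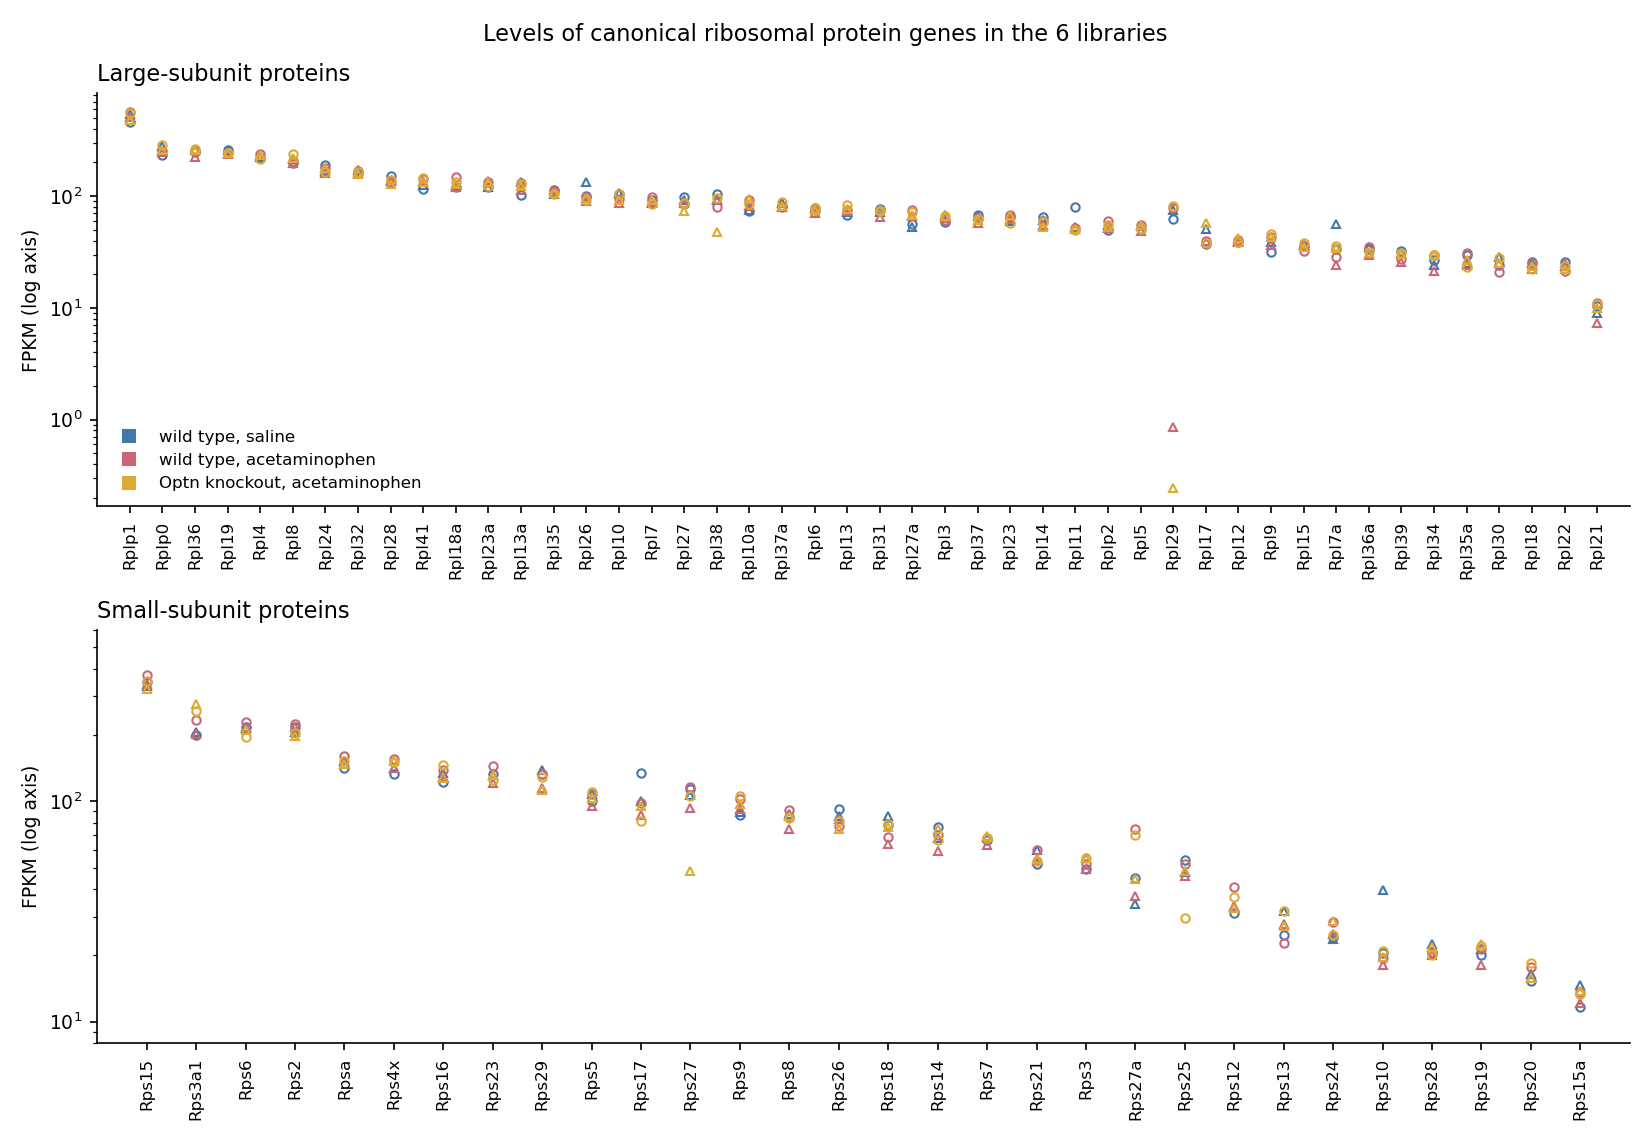
Deposited FPKM (log axis) of 76 of the 77 canonical ribosomal protein genes in the 6 libraries, with large-subunit genes in one panel and small-subunit genes in the other, ordered by mean. Points are single libraries, coloured by group, with circles and triangles for the 2 libraries of a group; most genes show 6 points close together, while Rpl29 has 2 libraries far below the rest.

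Rplp1, the stalk protein that recruits elongation factors, was the highest, at 457.4 and 537.4 FPKM in the saline libraries, 562.4 and 514.5 FPKM in treated wild type and 549.7 and 484.1 FPKM in the treated knockout. It is encoded at chr9:61913284-61914542 (GRCm38). Rps15, a protein of the small subunit near the decoding site, followed at 348.8 and 333.7, 375.5 and 341.0, and 352.2 and 324.9 FPKM in the same order of libraries, which is kept below. The stalk base Rplp0, often used as a reference gene in quantitative PCR, had 230.9 and 278.4, 252.1 and 250.4, and 287.9 and 258.4 FPKM. Treated wild-type and control libraries overlapped in FPKM for all 3 genes. Rpl36 had 250.6 and 257.3, 248.0 and 221.5, and 261.8 and 258.7 FPKM. Rpl19, a protein of the large subunit, had 258.0 and 259.8, 241.4 and 240.3, and 243.0 and 245.4 FPKM, with all treated libraries slightly below both controls. It varied little, its highest library being 1.109 times the lowest in TMM-scaled CPM (CPM divided by edgeR's trimmed-mean library factors). With TMM scaling the direction was the other, with log2 fold changes over saline of 0.11 in treated wild type and 0.10 in the treated knockout (edgeR adjusted p = 0.563 and 0.577). At the other end, Rpl21 had 10.35 and 9.002, 11.14 and 7.379, and 10.93 and 9.905 FPKM. Most of the reads of its family, 82.71%, were counted on near-identical copies elsewhere in the genome, so the level of the parent gene is uncertain.

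As a share of the library, the 86 genes took 1.348% and 1.384% of counts in the saline libraries, 1.395% and 1.28% in treated wild type, and 1.371% and 1.341% in the treated knockout. The lowest and the highest share belonged to the same group, and the 3 groups overlapped. The summed FPKM of the members was 1.602% and 1.721%, 1.622% and 1.569%, and 1.628% and 1.56% of all FPKM, with group means of 1.66%, 1.6% and 1.59%. Counts on large-subunit genes were 1.383 to 1.447 times those on small-subunit genes across the libraries. These shares are a description: no test was run on them. With 2 libraries a group, 0.333 is the smallest two-sided p of an exact permutation test.

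Acetaminophen was compared with saline in wild-type mice, to ask how the drug changed these transcripts within 6 h. Of the 83 members with enough signal to be tested, 2 passed edgeR's quasi-likelihood test at an adjusted p under 0.05, Rpl27a and Rpl22l1, both higher after acetaminophen. Of all genes tested, 14.3% passed (8.36% higher, 5.92% lower). The members' log2 fold changes, acetaminophen minus saline, were small, with a median of 0.169 and quartiles of 0.0727 and 0.28, against a median of 0.0273 and quartiles of -0.333 and 0.442 over all genes. They were positive for 70 of 83 members and for 52.0% of all genes. The large and small subunits had similar medians, 0.147 (40 of 46 positive) and 0.179 (28 of 31 positive). The 95% interval of the fold change lay within 1.5-fold in either direction for 44 of the 83, against 18.4% of all genes tested. The median standard error was 0.137 against 0.223. The genes tested were mostly less abundant than the members and were not matched to them for level. At an unadjusted p under 0.05 there were 12 members of 83 and 3767 of 11677 genes. The 12 were Rpl4, Rpl10a, Rpl13, Rpl22l1, Rpl23a, Rpl27a, Rpl41, Rpl7l1, Rps4x, Rps9, Rps12 and Rps24. In bulk RNA, fewer cells of a type and less RNA per cell cannot be told apart.

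**Figure D2:**
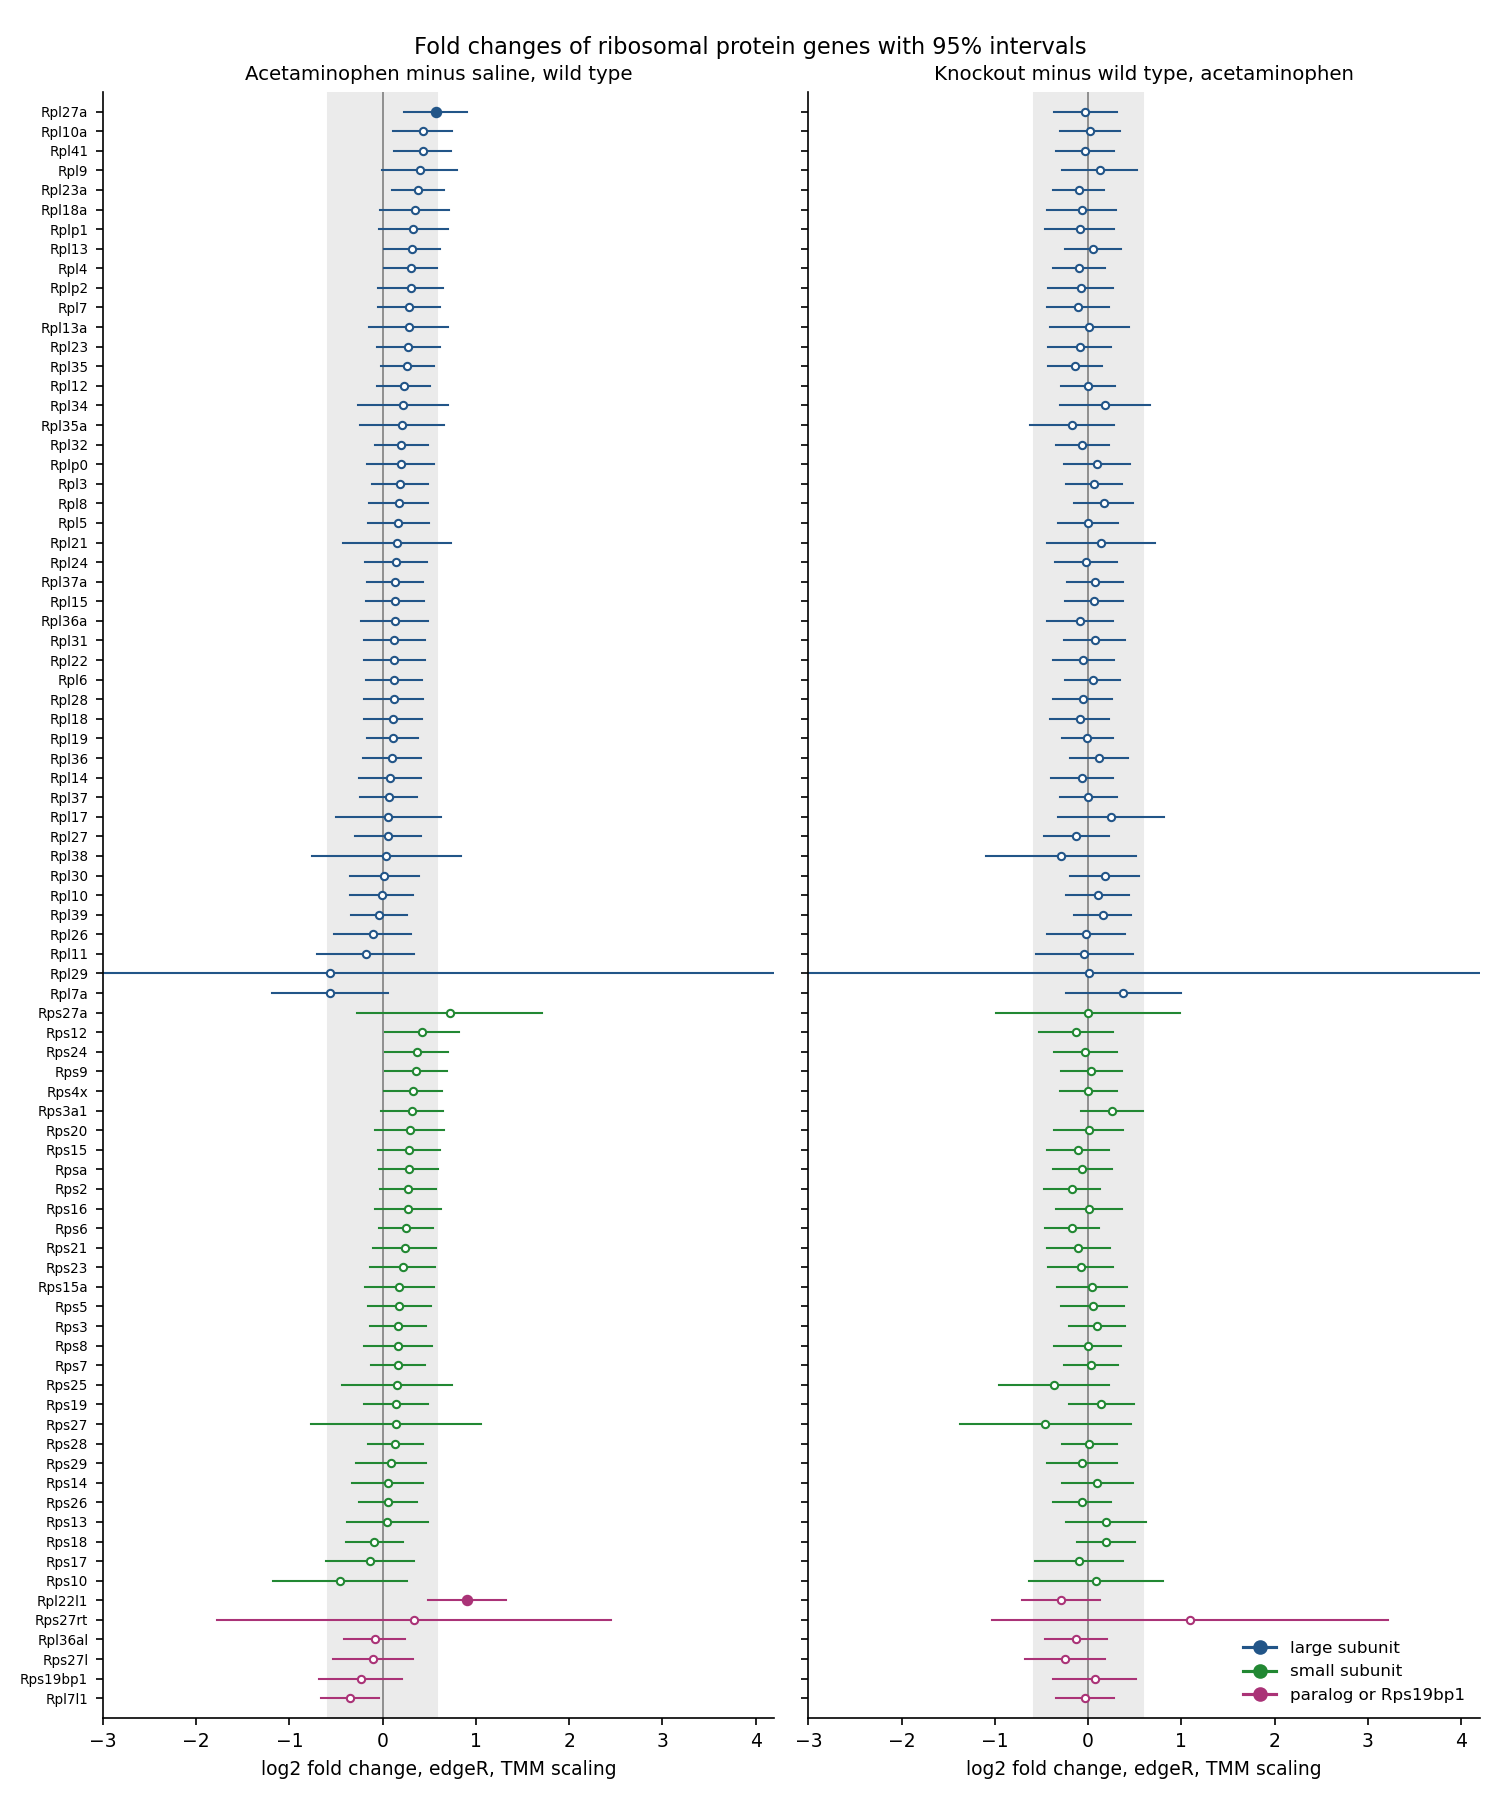
Log2 fold change of 82 of the 83 tested ribosomal protein genes with its 95% interval, for acetaminophen against saline in wild type and for treated knockout against treated wild type. The grey band marks 1.5-fold in either direction and filled points passed an adjusted p under 0.05: Rpl27a and Rpl22l1 in the first panel and no gene in the second; the interval of Rpl29 runs beyond the axis.

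The small upward median depended on how the libraries were scaled. The TMM factors were 1.09 and 1.109 in the saline libraries and 0.9227 to 0.9633 in the treated wild-type libraries, so that the TMM fit places treated libraries higher than a plain division by total counts does. With scaling by total count the members' median was -0.0558 and that of all genes -0.194, and with limma on log2(FPKM + 0.5), which has the same scaling, they were -0.0457 and -0.152. The distance of the members' median above that of all genes was 0.141 in the TMM fit and 0.139 with total counts. With single libraries left out it ran from 0.0892 (without wild-type acetaminophen replicate 1) to 0.263 (without wild-type acetaminophen replicate 4), and with no filter on low genes it was 0.0582. With total counts or limma on FPKM, 31 of the 83 members had a positive fold change in place of 70. In TMM-scaled CPM, 44 members (53%) had both treated wild-type libraries above both controls, against 32.7% of all genes, and 3 (3.61%) had both below, against 30.1%. In FPKM these were 11 members (13.3%) above, against 21.1% of all genes, and 21 (25.3%) below, against 45.1%.

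**Figure D3:**
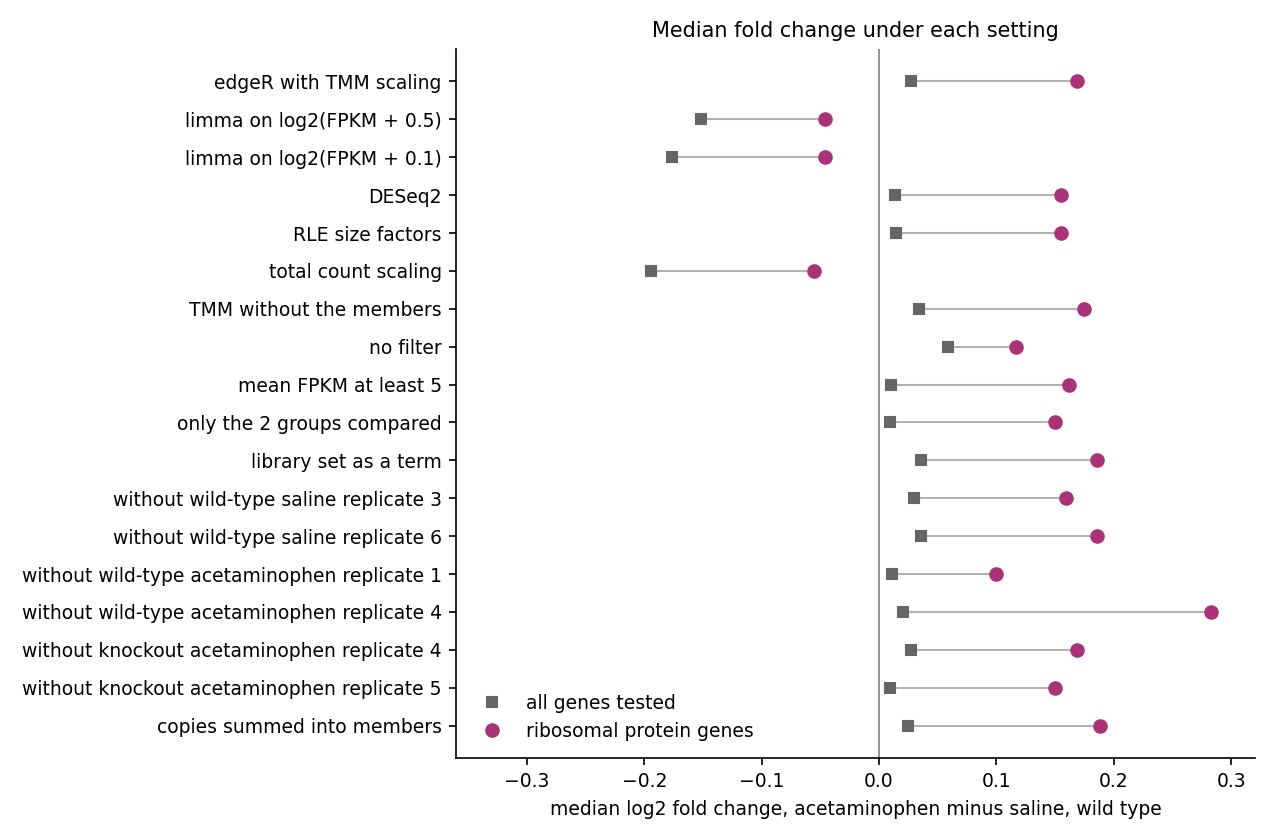
Median log2 fold change, acetaminophen minus saline in wild type, of all genes tested (squares) and of the ribosomal protein genes (circles) under each analysis setting. The members' median lies above that of all genes in every setting shown, but it is below 0 with total count scaling (-0.0558) and with limma on FPKM.

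Rpl27a (chr7:109519147-109522367), a large-subunit protein, had 56.18 and 53.29 FPKM in the saline libraries, 74.55 and 65.68 FPKM in treated wild type and 72.11 and 68.24 FPKM in the treated knockout. Both treated groups lay above the controls without overlap. The group means were 54.73 ± 2.042, 70.11 ± 6.274 and 70.18 ± 2.732 FPKM (SD, n = 2 each), and the log2 fold change in wild type was 0.57 ± 0.14 (SE, edgeR adjusted p = 0.0466). This call was close to the threshold: the adjusted p was 0.0659 to 0.19 with any of the 6 libraries left out and 0.0893 with limma. Reads of the gene are shared with copies, described below, and with these added the log2 fold change was 0.441 (edgeR adjusted p = 0.0855).

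Rpl22l1 (chr3:28805436-28807424) encodes a paralog of Rpl22 that can take its place on the ribosome and that regulates splicing. It had 4.869 and 5.293 FPKM in the saline libraries, 8.097 and 8.41 FPKM in treated wild type, and 5.984 and 7.789 FPKM in the treated knockout, so that all 4 treated libraries lay above both controls. The group means were 5.081 ± 0.2997, 8.253 ± 0.2212 and 6.887 ± 1.276 FPKM (SD, n = 2 each). In wild type the log2 fold change was 0.91 ± 0.17 (SE, edgeR adjusted p = 0.0238), the largest among the members. The adjusted p was 0.0724 to 0.116 without any of the saline or treated wild-type libraries, 0.032 without knockout replicate 5 and 0.0509 with total count scaling. With single libraries left out the log2 fold change stayed between 0.864 and 0.951. In the treated knockout against saline the log2 fold change was 0.62 ± 0.17 (edgeR adjusted p = 0.054), and knockout against wild type after acetaminophen differed by -0.29 ± 0.17 (edgeR adjusted p = 0.675). Copies of Rpl22l1 held 4.148% of the counts on the gene and its copies together. With these added the log2 fold change was 0.939 in wild type (edgeR adjusted p = 0.0175). In treated knockout against saline it was then 0.634 (edgeR adjusted p = 0.0405).

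Markers of neutrophils and red blood cells, and to a smaller extent of infiltrating monocytes and lymphocytes, were higher in every treated library than in either control. The 11 neutrophil markers summed to 2.857 and 7.514 CPM in the saline libraries and to 78.74 to 219.0 CPM in the 4 treated libraries. The 7 red blood cell markers summed to 700.1 and 1110 CPM in saline and 3962 to 9384 CPM after acetaminophen. The 8 markers of Kupffer cells, the resident macrophages of the liver, overlapped, at 99.05 and 287.2 CPM in saline and 221.4 to 410.4 CPM after acetaminophen. Of the neutrophil markers, 5 and 4 were at 0 in the saline libraries and none in the treated ones. The part of these cells in the ribosomal protein values was not tested.

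Knockout and wild type after acetaminophen were compared to ask whether loss of Optn altered these transcripts. None of the 83 members passed the edgeR test, against 0.103% of all genes (0.0514% higher and 0.0514% lower), and none had an unadjusted p under 0.05, against 1024 of 11677 genes. DESeq2, which called 283 of the 11677 genes, and limma on log2(FPKM + 0.5), which called 27, also called none of the members, and the smallest edgeR adjusted p among members was 0.65. The median log2 fold change, knockout minus wild type, was -0.00511, with 39 members positive and 44 negative, and the quartiles were -0.0885 and 0.0698 against -0.184 and 0.215 for all genes. For 66 of the 83 genes the 95% interval lay within 1.5-fold in either direction, against 30.1% of all genes tested, which were not matched for level. In the other 17 the interval reached past 1.5-fold on the lower side, the upper side or both. A difference of that size was not excluded on such a side. Among them were Rpl7a, Rpl17, Rpl21, Rpl22l1, Rpl29, Rpl34, Rpl35a, Rpl38, Rps3a1, Rps10, Rps13, Rps25, Rps27, Rps27a, Rps27l and Rps27rt. Rpl5 is an example of a well-bounded gene, with a 95% interval of -0.327 to 0.325 on the log2 scale. In FPKM, 17 members (20.5%) had both knockout libraries above both treated wild types, against 23.1% of all genes, and 7 (8.43%) had both below, against 15.9%. In TMM-scaled CPM these were 7 (8.43%) against 20.8% and 8 (9.64%) against 18.9%. Leaving out single libraries moved the members' median between -0.0944 and 0.0843.

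Treated knockout mice were also compared with saline wild types, a comparison in which genotype and drug both differ and which shares its controls with the first. Rps3a1 and Rpl27a passed the edgeR test, both higher, among 83 members, against 20.3% of all genes (12.2% higher, 8.05% lower). The median log2 fold change of the members was 0.171 against -0.00176 for all genes, with 68 of 83 positive. In TMM-scaled CPM, 53 members (63.9%) lay above the controls without overlap, against 33.7% of all genes, and 4 (4.82%) below, against 32.7%. In FPKM these were 17 (20.5%) against 24.3% and 22 (26.5%) against 44.5%. With total count scaling the members' median was -0.0175.

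Rps3a1 (chr3:86137940-86142702), a protein of the small subunit on the path of the messenger RNA, had 200.4 and 206.3 FPKM in saline, 234.1 and 202.5 FPKM in treated wild type and 256.3 and 276.7 FPKM in the treated knockout. Both knockout libraries were above all others, and one of the treated wild-type libraries lay within the range of the controls. Group means were 203.3 ± 4.167, 218.3 ± 22.35 and 266.5 ± 14.47 FPKM (SD, n = 2 each). The log2 fold change of treated knockout over saline was 0.57 ± 0.14 (SE, edgeR adjusted p = 0.0351), and the adjusted p ran from 0.082 to 0.157 without any of the saline or knockout libraries and was 0.0371 without wild-type acetaminophen replicate 1. Against treated wild type the difference was 0.25 ± 0.14 (edgeR adjusted p = 0.65). When reads on copies of the gene were added, the first of these became 0.257 (edgeR adjusted p = 0.296) and the second -0.0457. Rpl27a in the same comparison with saline was higher by 0.54 ± 0.14 (edgeR adjusted p = 0.0434), and by 0.385 (adjusted p = 0.103) with copies added.

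Ribosomal protein genes have many processed copies in the mouse genome, and a read that fits the parent and a copy can be counted on either. Copies were pseudogenes or entries with names ending in -ps whose transcript matched a member over at least 100 bases at 95% identity or more. Rps27rt was also taken as a copy of Rps27 and was itself given no copies. Each copy was assigned to a single member, and other matching entries were left out. Copies were found for 79 of the 86 members, 689 in all, of which 565 had counts. They held a median of 7.83% of the counts of a family, more than 10% in 38 families and more than 50% in 4 (Rpl17, Rpl21, Rpl7a and Rps12). In TMM-scaled CPM, 17 of 83 members had a highest library over 1.5 times the lowest, against 71.1% of all genes tested, which were not matched to the members for level. With the counts of copies added to each member, a step chosen after the data had been seen, this held for 5 of 82: Rpl11, Rpl13a, Rpl22l1, Rpl29 and Rps25.

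**Figure D4:**
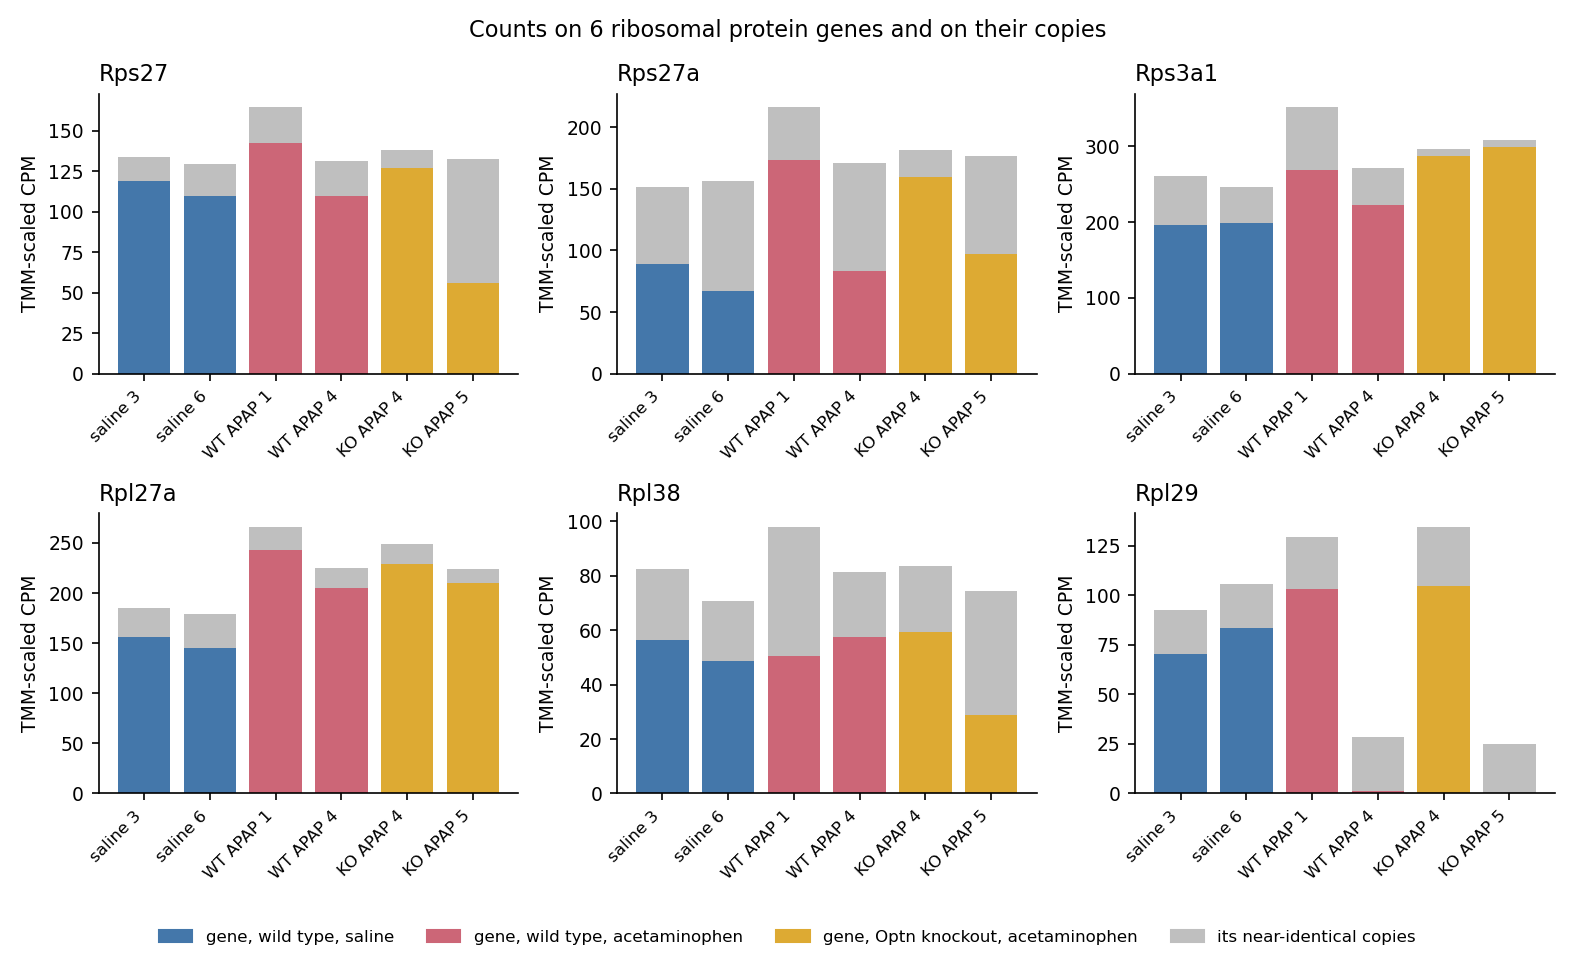
TMM-scaled CPM on 6 ribosomal protein genes (coloured bars) and, stacked on them in grey, on their near-identical copies, in each library. For Rps27, Rps27a, Rps3a1, Rpl27a and Rpl38 the sum varies less than the gene alone, while for Rpl29 the sum falls with the gene in 2 libraries.

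Coding sequences of 2 members are shown beside a copy with counts of its own, since they show how few bases separate the entries. Both are read from GRCm38 with the GENCODE annotation, positions count from 1 at the A of the start codon, and capitals mark bases that differ.
Rps27a (chromosome 11), bases 346 to 405: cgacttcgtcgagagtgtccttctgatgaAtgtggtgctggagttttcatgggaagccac
Rps27a-ps2 (chromosome 9), same bases: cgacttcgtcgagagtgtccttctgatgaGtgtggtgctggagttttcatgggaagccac
Rps3a1 (chromosome 3), bases 627 to 686: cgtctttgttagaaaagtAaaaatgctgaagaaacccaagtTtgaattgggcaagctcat
Rps3a2 (chromosome 14), same bases: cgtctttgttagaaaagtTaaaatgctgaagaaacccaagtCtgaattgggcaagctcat
Rps27a and Rps27a-ps2 differ at 1 of 467 aligned bases, and Rps3a1 and Rps3a2 at 4 of 792. Rpl27a has 0 differences from Gm7536 (chromosome 3) over 444 aligned bases. The whole coding sequence of Rps27, 255 bases on chromosome 3, is identical in Rps27rt on chromosome 9.

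The division of a family's counts between parent and copy differed from library to library. Rps27a, made as a fusion of ubiquitin and a ribosomal protein, had 5740 and 5612 counts in saline, 10534 and 5682 in treated wild type and 11684 and 5941 in the treated knockout. Its copy Rps27a-ps2 had 2900 and 5783, 1552 and 4679, and 828 and 3351 counts, lowest in the 2 libraries where the parent was highest. In FPKM the parent had 44.96 and 34.36, 74.71 and 37.36, and 70.51 and 44.31, so that each treated group held 1 high and 1 low library. The log2 fold change of Rps27a after acetaminophen was 0.72 ± 0.40 (SE, edgeR adjusted p = 0.281), the largest among canonical members, and 0.343 with copies added. Rps27 had 7668 and 9227, 8666 and 7506, and 9319 and 3442 counts, and Rps27rt, annotated as a retrogene, 833 and 1514, 1214 and 1307, and 628 and 4576. The low library of Rps27, knockout replicate 5, was the high library of Rps27rt, and the ratio of the highest to the lowest library fell from 2.537 for Rps27 alone to 1.272 for the family.

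For Rps3a1, the copies were lower in the knockout libraries, where the parent was higher. Rps3a1 had 12668 and 16684 counts in saline, 16350 and 15253 in treated wild type and 21034 and 18374 in the treated knockout. Rps3a2 had 2645 and 2855, 3429 and 2513, and 199 and 162 counts, and Gm7600 had 1086 and 822, 1154 and 380, and 103 and 76. Rpl27a had 10088 and 12241, 14784 and 14047, and 16807 and 12868 counts, and Gm7536 had 1497 and 2552 in saline against 563 to 1013 in the treated libraries. Rps3a1 and Rpl27a therefore each had a copy that was lower than in saline in the groups where the parent was called higher. Whether reads changed place between entries or the copies are themselves transcribed was not tested.

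Rpl29, a heparin-binding protein of the large subunit (chr9:106429454-106431568), stood apart from all of these. It had 4531 and 7037 counts in saline and 6294 and 7682 in wild-type acetaminophen replicate 1 and knockout replicate 4, but 75 counts in wild-type acetaminophen replicate 4 and 19 in knockout replicate 5. In FPKM these were 62.17 and 75.48, 78.19 and 0.8535, and 81.19 and 0.246. The highest library was 338.0 times the lowest in TMM-scaled CPM and 5.414 times with copies added. Its most-counted copy, Gm13841, had 1005 and 899 counts in the 2 low libraries and 785 to 1254 in the others, so the counts missing from Rpl29 did not appear there. The 2 low libraries come from different groups, and the log2 fold change after acetaminophen, -0.56 ± 2.23 (SE, edgeR adjusted p = 0.892), therefore says little about the drug. No other annotated gene overlaps Rpl29.

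Other members had 1 library apart. Rpl7a had 33.54 and 56.77 FPKM in saline, 28.25 and 24.39 in treated wild type and 35.67 and 34.28 in the knockout, and its log2 fold changes were the lowest of canonical members with acetaminophen, together with Rpl29 (-0.56 ± 0.25, edgeR adjusted p = 0.188), and the highest with knockout (0.38 ± 0.25, edgeR adjusted p = 0.721). Copies hold 82.99% of its family, and the ratio of the highest to the lowest library fell from 2.033 to 1.131 once they were added. Rps10 had 20.44 and 39.41, 19.45 and 18.07, and 20.99 and 19.58 FPKM, high in saline replicate 6 alone (log2 fold change -0.46 ± 0.29, edgeR adjusted p = 0.341). For Rps10 the ratio fell from 1.904 to 1.425. Rpl38, named here after its values were seen, had 1777 counts in knockout replicate 5 against 3079 to 4352 elsewhere, while Rpl38-ps2 was highest there, at 2029 against 1106 to 1952.

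Rps25 had 54.09 and 47.57 FPKM in saline, 51.88 and 45.87 in treated wild type and 29.47 and 48.28 in the knockout. Its low library was knockout replicate 4, with a log2 difference between knockout and wild type of -0.37 ± 0.24 (edgeR adjusted p = 0.712), and the gene overlaps Trappc4 and Ccdc84. Whether the counting used strand is not given in the sources used here, so reads of overlapping genes may not be told apart. Rpl11 was high in saline replicate 3 alone, at 80.56 FPKM against 50.1 to 53.12 FPKM in the other 5 libraries. Its log2 fold change after acetaminophen was -0.18 ± 0.21 (edgeR adjusted p = 0.607). With copies added, Rpl11 and Rps25 were still over 1.5-fold between the highest and lowest library.

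Members with known roles outside the mature ribosome were described with the rest. Rpl5, partner of Rpl11 and the 5S RNA, had 50.98 and 55.34, 54.73 and 48.35, and 50.53 and 54.87 FPKM, with groups that overlapped and a log2 fold change of 0.17 ± 0.13 after acetaminophen (edgeR adjusted p = 0.436). Rps6, the substrate of the S6 kinases (chr4:86854660-86857412), had 218.8 and 215.8, 228.5 and 218.2, and 195.9 and 210.3 FPKM. Its log2 fold change was 0.25 ± 0.12 after acetaminophen (edgeR adjusted p = 0.205) and -0.17 ± 0.12 between knockout and wild type (edgeR adjusted p = 0.733). Rpsa, also known as the laminin receptor, had 141.9 and 152.5, 161.0 and 147.4, and 153.0 and 148.5 FPKM (0.28 ± 0.13, edgeR adjusted p = 0.196). Rps3, which also acts in DNA repair, had 49.13 and 55.08, 51.79 and 49.36, and 55.14 and 55.51 FPKM (0.17 ± 0.12, edgeR adjusted p = 0.394). In wild type, treated and control libraries overlapped in FPKM for all 4 genes. By FPKM, the knockout libraries lay just above both controls for Rps3 and below both for Rps6. In the TMM fit, the log2 fold changes of treated knockout over saline were 0.27 for Rps3 and 0.08 for Rps6 (edgeR adjusted p = 0.175 and 0.656).

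Rpl10, a late-joining protein at the centre of the large subunit, had 104.1 and 106.9 FPKM in saline, 93.8 and 86.95 FPKM in treated wild type and 105.4 and 92.78 FPKM in the knockout. Its log2 fold change was -0.01 ± 0.14 (edgeR adjusted p = 0.965). Rpl41, which encodes the shortest ribosomal protein, had 115.8 and 125.6, 143.4 and 137.1, and 145.1 and 134.8 FPKM. All 4 treated libraries lay above both controls, and no copies of the kind defined above were found for it. Its log2 fold changes were 0.43 ± 0.13 in wild type (edgeR adjusted p = 0.0747) and 0.40 in the treated knockout against saline (edgeR adjusted p = 0.077), and did not pass the threshold.

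Of the other paralog genes, 3 could not be tested. Rpl3l, the paralog of striated muscle, had 9 counts in wild-type acetaminophen replicate 1, 15 in knockout replicate 5 and 0 elsewhere. Rpl39l, known from testis, had 12 counts in saline replicate 6 and 0 elsewhere, and Rpl10l, also a testis gene, had 0 in every library. Where no count was seen, 3 counts remain possible (0.0507 CPM for the library with the lowest total), a limit that covers counting error only. These genes were thus near the limit of detection in each library.

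Rpl7l1, a relative of Rpl7 that acts in assembly, had 16.78 and 18.22 FPKM in saline, 11.86 and 11.89 in treated wild type and 10.94 and 12.81 in the treated knockout, all treated libraries being below both controls. The log2 fold change in wild type was -0.35 ± 0.13 (edgeR adjusted p = 0.121). It passed as lower with limma (adjusted p = 0.0387), with DESeq2 (adjusted p = 0.0398) and with total count scaling (-0.57, edgeR adjusted p = 0.0358). Rps27l, a paralog of Rps27 known as a p53 target, had 130.0 and 104.0, 102.3 and 86.09, and 79.04 and 83.24 FPKM. Its log2 fold change was -0.10 ± 0.17 in wild type (edgeR adjusted p = 0.735) and -0.35 in the treated knockout against saline (edgeR adjusted p = 0.21). Rpl36al, a paralog of Rpl36a, had 110.3 and 104.2, 92.2 and 82.16, and 83.64 and 79.51 FPKM (-0.09 ± 0.14, edgeR adjusted p = 0.705). Both genes were lower in every treated library than in either control by FPKM, and neither passed the test.

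Rps27rt (chr9:114982366-114982739) had 34.4 and 48.88 FPKM in saline, 45.39 and 45.32 in treated wild type, and 19.96 and 180.0 in the treated knockout. The 2 knockout libraries were the lowest and the highest of all 6. The log2 difference between knockout and wild type was 1.09 ± 0.87 (edgeR adjusted p = 0.771), and against saline it was 1.43 (edgeR adjusted p = 0.296), or 2.27 (edgeR adjusted p = 0.0174) without knockout replicate 4. Rps19bp1, the one member that is no ribosomal protein, had 11.51 and 10.74, 8.805 and 7.541, and 9.094 and 8.408 FPKM, with a log2 fold change of -0.23 ± 0.18 in wild type (edgeR adjusted p = 0.427).

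Genes that build, load or watch over the ribosome were read beside the proteins themselves, from lists written with earlier results of these data known. Of 70 ribosome assembly factors, 13 rose and 0 fell after acetaminophen in wild type, with a median log2 fold change of 0.339 against 0.0273 for all genes, of which 8.36% were called higher and 5.92% lower. In the treated knockout against saline, 21 rose and 1 fell (median 0.391), against 12.2% of all genes called higher and 8.05% lower. Between knockout and wild type 0 passed, where only 0.103% of all genes did. Ddx21, a nucleolar RNA helicase, had 6.563 and 6.414 FPKM in saline, 10.97 and 10.51 in treated wild type and 12.66 and 14.64 in the knockout (0.94 ± 0.13, edgeR adjusted p = 0.0103). The GTPase Gnl2, which acts in export of the large subunit, had 6.162 and 5.748, 10.75 and 10.57, and 11.34 and 14.03 FPKM (1.05 ± 0.14, edgeR adjusted p = 0.0103). Tsr1, of the small-subunit precursor, had 2.067 and 1.884, 3.222 and 3.483, and 3.321 and 3.676 FPKM (0.97 ± 0.16, edgeR adjusted p = 0.016). Rrs1, which brings Rpl5 and Rpl11 into the precursor, had 7.257 and 7.834, 12.58 and 12.71, and 11.15 and 15.46 FPKM (0.95 ± 0.17, edgeR adjusted p = 0.0216). In each of these 4 genes all treated libraries were above both controls. The counts of rises depended on single libraries, running from 1 to 8 in wild type and from 2 to 16 in the knockout comparison with any 1 library left out: leaving out saline replicate 6 gave the 1 and leaving out knockout replicate 5 the 2. In wild type the count was at most 3 without any of its own 4 libraries and 8 without either knockout library. All-gene calls were also fewer in both comparisons with any single library left out. With library set as a term, 1 rose in wild type and 9 in treated knockout against saline. In that fit 572 and 670 of all 11677 genes were called higher. With total count scaling, 7 rose and 3 fell in wild type, and the median was 0.12. Under that scaling 724 of 11677 genes were called higher and 1497 lower.

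**Figure D5:**
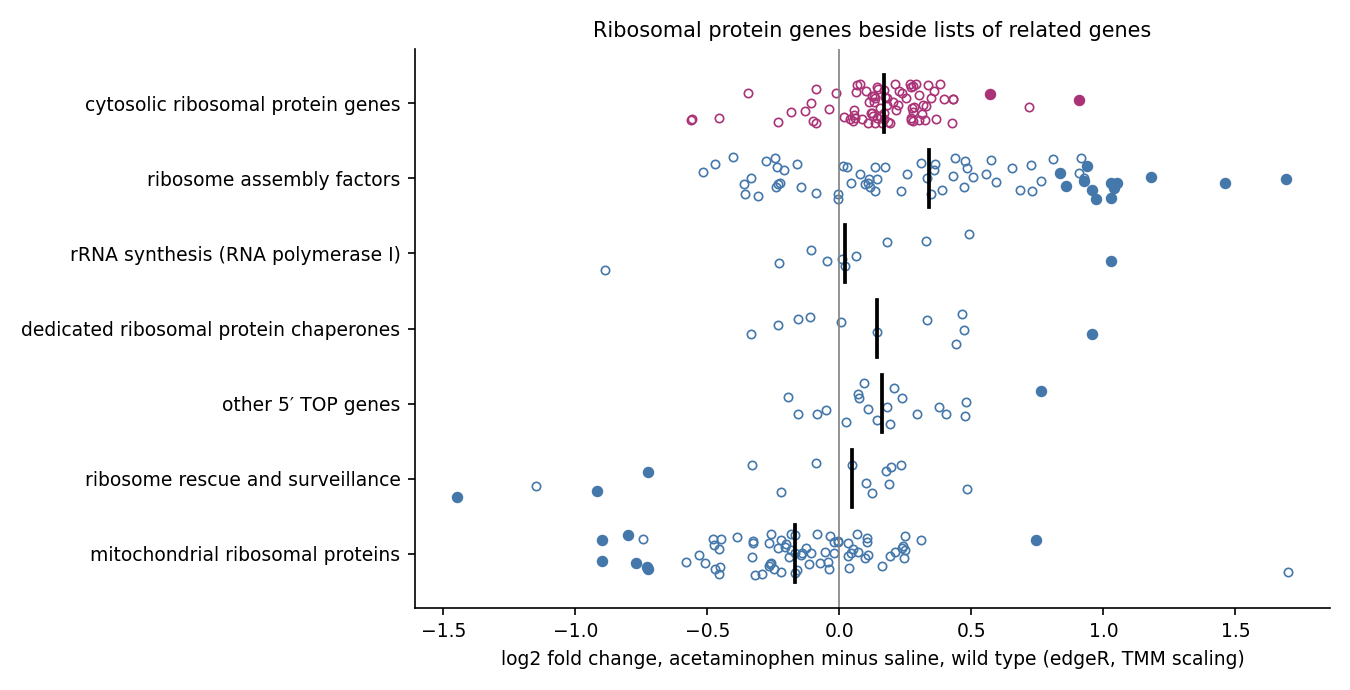
Log2 fold change of each gene in the lists around the ribosome, acetaminophen minus saline in wild type; bars mark list medians and filled points passed an adjusted p under 0.05. Assembly factors have a median of 0.339 with 13 filled points above 0, the ribosomal protein genes lie close to 0.169, and the mitochondrial ribosomal proteins have a median of -0.168.

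Other genes with a TOP tract, which share the translational control of the members, included 1 of 20 that rose, Hnrnpa1 (0.76 ± 0.17, edgeR adjusted p = 0.0367), and 0 that fell. Their median was 0.163 in the TMM fit and -0.0595 with total count scaling, close to the members in both. Of 11 genes of RNA polymerase I transcription, Taf1d alone rose (1.03 ± 0.20, edgeR adjusted p = 0.0246), and the list median was 0.02. Of 11 dedicated chaperones of ribosomal proteins, Rrs1 alone rose, and it is also among the assembly factors. In wild type these 3 lists thus held 1 call each, where 8.36% of all genes were called higher. In treated knockout against saline, where 12.2% were, Hnrnpa1 and Pabpc1 rose among the TOP genes, Taf1d and Taf1a among the polymerase I genes and Rrs1 among the chaperones, and 0 fell.

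Of 19 tested regulators of the translation of ribosomal protein messenger RNAs, 4 rose and 0 fell after acetaminophen in wild type, against 8.36% of all genes called higher. Their median was 0.178, and with total count scaling 3 rose and 2 fell (median -0.0396). Under that scaling 724 of 11677 genes were called higher and 1497 lower. Leaving out single libraries left 1 to 3 rises: 1 without saline replicate 3, 2 without either treated wild-type library and 3 otherwise. Sesn2, a stress-induced inhibitor of mTORC1, had 1.918 and 2.692 FPKM in saline, 20.03 and 19.31 in treated wild type and 23.21 and 16.91 in the knockout (3.30 ± 0.25, edgeR adjusted p = 0.00241). Eif4ebp1, the cap-binding repressor that mTORC1 phosphorylates, had 16.27 and 19.19, 33.47 and 30.28, and 35.02 and 33.42 FPKM (1.06 ± 0.14, edgeR adjusted p = 0.0103). Ddit4, another inhibitor of mTORC1, rose by 2.45 ± 0.54 (edgeR adjusted p = 0.036). The fourth was Larp4, which binds poly(A) tails, at 2.496 and 2.07, 3.309 and 3.835, and 0.6982 and 0.9277 FPKM. Larp4 rose with acetaminophen in wild type (0.85 ± 0.18, edgeR adjusted p = 0.0338) and lay below treated wild type in the knockout (-2.16 ± 0.19, edgeR adjusted p = 0.0401). It was the only gene of these lists that passed in the comparison of genotypes, where its adjusted p ran from 0.0783 to 0.189 without any of the 4 treated libraries and was 0.337 with library set as a term. Against saline it was lower in the treated knockout by -1.31 on the log2 scale (edgeR adjusted p = 0.00824).

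Among the S6 kinases, 1 of 7 tested genes rose and 0 fell after acetaminophen in wild type. Of all genes, 8.36% were called higher and 5.92% lower. Rps6ka3, the RSK2 kinase, had 0.1236 and 0.1906 FPKM in saline, 0.9251 and 0.6553 in treated wild type and 1.06 and 1.332 in the knockout (2.53 ± 0.32, edgeR adjusted p = 0.00883). The direct S6 kinases Rps6kb1 (-0.06, edgeR adjusted p = 0.857) and Rps6kb2 (-0.04, edgeR adjusted p = 0.892) did not pass. Of 8 genes of the 5S particle and the p53 pathway, the p53 targets Mdm2 and Cdkn1a rose and 0 fell, beside the same shares of all genes. Mdm2 had 2.882 and 3.0 FPKM in saline, 7.282 and 7.887 in treated wild type and 9.821 and 12.04 in the knockout (1.57 ± 0.14, edgeR adjusted p = 0.00331). Cdkn1a, the cell cycle inhibitor p21, had 0.2029 and 0.7279, 43.39 and 29.63, and 36.39 and 41.42 FPKM (6.48 ± 0.63, edgeR adjusted p = 0.00433). Both passed under all 17 alternative settings, whereas Rpl5 and Rpl11 themselves did not pass.

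Ribosome rescue and surveillance held 15 tested genes, of which 0 rose and 3 fell after acetaminophen in wild type, where 8.36% of all genes were called higher and 5.92% lower. Usp10, which removes ubiquitin from small-subunit proteins, had 6.101 and 5.382 FPKM in saline, 1.713 and 1.931 in treated wild type and 4.128 and 2.85 in the knockout (-1.45 ± 0.22, edgeR adjusted p = 0.0135). Edf1, which binds collided ribosomes, had 101.8 and 77.59, 48.83 and 44.93, and 46.89 and 44.31 FPKM (-0.73 ± 0.18, edgeR adjusted p = 0.0469). Ankzf1, which releases stalled chains, fell by 0.92 ± 0.18 (edgeR adjusted p = 0.0246). The list median was 0.0478, and -0.173 with total count scaling, under which 5 fell and 1497 of 11677 genes were called lower. Leaving out single libraries left 0 to 2 falls: 0 without saline replicate 3, 1 without wild-type acetaminophen replicate 1 and 2 without each of the others. Among the genes of these lists named as changed in wild type, Sesn2, Rps6ka3, Mdm2 and Cdkn1a passed with any of the 6 libraries left out, while the others kept their direction and lost the threshold in at least 1 such fit.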

How the data were processed

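Poly(A) RNA of 6 mouse livers was sequenced as paired ends, per the labels' protocols, which also speak of an adipose type of RNA although the tissue label is liver. The deposited table holds whole-number counts per gene and library, with no scaling, per the file headers. It also holds a deposited FPKM value for each, listed at 0.0001 where the count is 0. The submitters' processing notes name Bowtie 0.12.2 and the build mm8, with no roles. Which program counted, and whether by strand, is not given in the sources used here. All 86 members have GENCODE M21 identifiers and 73 have identical coordinates there, so coordinates are given as GRCm38. All columns of values map to samples through their titles.

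Counts were tested with edgeR 4.0.16 in R 4.3.3 (quasi-likelihood, TMM scaling, 1 model of 3 group means over all 6 libraries). The 11677 genes averaging 0.5 FPKM or more entered, with Benjamini-Hochberg adjustment over all of them and a threshold of 0.05. There were 3 residual and 2.928 prior degrees of freedom, and the common biological coefficient of variation came to 0.2773. The 95% intervals use 5.928 degrees of freedom. The procedure was also run on simulated counts drawn with less spread than these data, which therefore cannot give its error rates here. Alternatives were limma 3.58.1 on log2(FPKM + 0.5) or with a pseudocount of 0.1, DESeq2 1.42.0, other scalings and filters, fewer samples, a term for library set and, chosen after the data had been seen, counts of copies summed into members. Copies were found with BLAST+ 2.17.0.

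Named genes were Optn, members past the threshold in any comparison, the 5 highest and the lowest canonical members, all paralogs and Rps19bp1, the 2 largest rises and falls of canonical members in each comparison, a set of anchors (Rplp0, Rpsa, Rpl5, Rpl11, Rps3, Rps6, Rps27a, Rpl10, Rpl41) and up to 4 genes with the smallest p in each list. Genes named beyond this rule were chosen after their values had been seen. The plotted values of 1 member and 1 list of related genes are not reported here. The members, the lists and the comparisons were chosen with earlier results of these data known. Marker lists were hepatocyte, skeletal muscle, intestinal epithelium, neuron, neutrophil, Kupffer cell and red blood cell, given in the report, and 3 more. Infiltrating monocyte markers summed to 1726 and 1917 CPM in saline and to 2016 to 2394 CPM after acetaminophen. Those of lymphocytes summed to 11.26 and 12.62 CPM in saline and to 15.45 to 19.95 CPM after acetaminophen. Those of proliferating cells overlapped, at 10.92 to 19.67 CPM across all libraries.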

Additional observations from a re-analysis of the deposited data

How the results depend on the processing

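After acetaminophen in wild type, 2 members were called, and the count was 7 with DESeq2, 1 with total count scaling (lower, Rpl7l1), 1 without a filter, 1 with only the 2 groups compared, 1 with copies summed, 0 with library set as a term and 0 to 1 with single libraries left out. The median of 0.169 became -0.0457 and -0.0461 with limma at pseudocounts of 0.5 and 0.1 and -0.0558 with total counts, and ran from 0.0999 to 0.283 with single libraries left out. For treated knockout against saline, 2 calls became 12 with DESeq2, 8 with a filter of mean FPKM at least 5, 1 with limma at either pseudocount (lower), 1 with total counts (lower), 1 with copies summed, 0 without a filter, 0 with library set and 0 to 2 with single libraries left out, and the median of 0.171 became -0.0102, -0.0103 and -0.0175 with limma and total counts. Of all genes, DESeq2 called 3619 of 11677 in treated knockout against saline, and the fit with mean FPKM at least 5 called 1035 of 4266. Between knockout and wild type the median ran from -0.0944 to 0.0843 with single libraries left out. Among all genes, total count scaling gave 724 higher and 1497 lower calls in place of 976 and 691 in wild type, and 1137 and 1768 in place of 1426 and 940 in treated knockout against saline. All-gene calls in wild type were 1667, and 3102 with DESeq2, 812 with library set and 494 to 1263 with single libraries left out. As a share of all FPKM in place of counts, the members took 1.66%, 1.6% and 1.59% in the 3 groups. For the 28 tested genes that are Optn or members named by the rule, 1236 of 1425 values kept their direction and side of the threshold. Of the others, 47 lost the threshold and 16 gained it with the direction kept, and 126 changed direction without passing in either fit. No paired analysis was possible because the groups compared share fewer than 2 replicate numbers. With 2 libraries a group, modest changes of single genes were at the edge of what could be called.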

Other observations

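The ribosomal proteins of the mitochondrial ribosome were taken up as a list after the data had been seen. Of 78 genes tested after acetaminophen in wild type, 6 fell and 1 rose in edgeR's quasi-likelihood test, where 5.92% of all genes were called lower and 8.36% higher, so the share that fell was near the background. The median log2 fold change was -0.168, beside 0.169 for the cytosolic members and 0.0273 for all genes, and the difference between the lists was not tested. Mrpl22 had 20.28 and 22.5 FPKM in saline, 9.996 and 9.766 FPKM in treated wild type and 9.149 and 9.817 FPKM in the treated knockout (-0.90 ± 0.15, SE, edgeR adjusted p = 0.0167). Mrpl34 had 45.91 and 45.13, 23.95 and 23.5, and 28.01 and 25.73 FPKM (-0.73 ± 0.14, edgeR adjusted p = 0.0231). Mrpl15 (5.114 and 4.406, 2.074 and 2.346, and 2.307 and 2.018 FPKM) and Mrpl49 (15.32 and 17.48, 8.055 and 8.173, and 8.788 and 7.414 FPKM) fell as well. All treated libraries of these 4 genes lay below both controls. Mrpl32 was the gene that rose (0.74 ± 0.19, at the threshold). In treated knockout against saline 9 fell and 0 rose (median -0.209), where 8.05% of all genes were called lower and 12.2% higher. Mrps27 was among the genes that fell (-0.96, edgeR adjusted p = 0.0141). Between knockout and wild type 0 passed, where only 0.103% of all genes did. The counts depended on single libraries: in wild type 0 fell without saline replicate 3 or either treated wild-type library, 1 without saline replicate 6 and 6 without either knockout library, and 1 fell with library set as a term. All-gene calls in wild type were also fewer with any single library left out, and 240 of 11677 genes were called lower with library set. With total count scaling 16 fell and 0 rose, with a median of -0.39. Under that scaling 1497 of 11677 genes were called lower and 724 higher, and the median of all genes was -0.194.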
